A study of Mus musculus with 4 samples.

Results

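The complement cascade was represented by 39 listed genes, its components, receptors and regulators, matched to the arrays by gene symbol. A gene was measured where a probe set was annotated to that gene alone, and where several were, the probe set with the highest mean over the 4 arrays stood for it. In this way 37 of the 39 genes were measured, out of 30706 genes with a probe set of their own; no probe set was assigned here to C3, the central component, or to Cfd, which encodes factor D. The arrays profiled whole lung of adult, age-matched mice. WT replicates 1 and 2 came from mice whose strain is labelled C57/BL6. SCD replicates 1 and 2 came from mice whose strain is labelled SCD Tg, the title of the series naming sickle cell disease. The transgene, its promoter, the genetic background of the SCD mice, the sex of the animals and any treatment are absent from the labels used here, and an effect of the disease and of a different genetic background cannot be told apart. The study's text speaks of 2 lungs per genetic group, but the labels do not tie each array to an animal of its own, and p-values then measure only the spread between these arrays, which may be technical.

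Complement is a protein cascade of blood plasma and tissue fluid that tags microbes and damaged cells. The classical pathway starts when C1q, with its proteases C1r and C1s, binds antibody or a damaged surface and cleaves C4 and C2; the lectin pathway starts from mannose-binding lectins and ficolins; and the alternative pathway amplifies the response through factor B, factor D and properdin. All converge on C3 and then C5, whose fragments act on receptors of myeloid cells and whose larger part assembles the membrane attack complex with C6, C7, C8 and C9. The liver makes most plasma complement, while epithelial cells, fibroblasts and macrophages of the lung make components locally.

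Values are log2 expression values, and each difference is the SCD mean less the WT mean of these log2 values, ± the moderated standard error (SE) from limma, with 2 arrays per group. A gene was called where its p-value, adjusted by the Benjamini-Hochberg method over all 30706 genes, was under 0.05. The 4 arrays were alike in scale, with medians from 5.59 to 5.65 over all transcript clusters. The lung genes Sftpc and Scgb1a1 sat at the top of the scale, with 19.93 on every array, and could show no difference there. Of the other lung genes checked, Cdh5 fell by 0.47 ± 0.076 in SCD lung (adjusted p = 0.049 by limma). Sftpb (-0.085 ± 0.056) and Ager (0.17 ± 0.12) did not pass. Probe sets against introns had medians of 6.48 and 6.47 in WT lung and 6.31 and 6.27 in SCD lung, and 14 of the 37 complement genes lay below that median on every array; a small difference of such a gene carries little information.

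The calls were the classical C4 genes, factor B, the terminal components C7 and C5, and the regulator clusterin. In SCD lung 5 of the 37 measured genes rose, namely C4b, Cfb, Clu, C4a and C7, by 0.77 to 1.45. Hc, the gene of complement C5, fell by 0.38, and 31 genes did not pass. The 5 increases are 13.5% of the measured members, where 2.46% of all genes were called higher. The single decrease is 2.70%, where 0.635% of all genes were called lower. Among genes not below the intron control median on every array, 21.7% of 23 members and 5.25% of 14085 genes were called higher. Called lower were 4.35% and 1.26%, and the median differences were 0.41 and 0.054. That choice keeps genes that reach the median on 1 array only, such as C1qb on SCD replicate 1. C1qb, C2, C3ar1 and C5ar1 were kept through SCD arrays only, where the intron control medians were also lower. The choice thus favours genes that are higher in SCD, and the shares and medians after it are partly set by it. The median difference was 0.27 over the members and 0.0019 over all genes; the members' median was 0.093 without WT replicate 2, and 0.057 against -0.21 over all genes with the shift of the exon control probes taken off. Both SCD arrays lay above both WT arrays for 19 members, or 51.4%, against 25.3% of all genes. They lay below both for 3, or 8.11%, against 22.5% of all genes. Among the genes not below the intron control median on every array, the shares above were 65.2% of members and 36.5% of genes. C1qb, C2, C3ar1 and C5ar1 are among these members, so that this share is in part a product of the choice. The shares below were 4.35% and 21.7%. An unadjusted p under 0.05 in limma was found for 15 of the 37 members and for 5129 of all 30706 genes. With 2 arrays a group, an exact permutation test of a single gene could not fall below p = 0.33, so the calls rest on the spread shared over all genes in limma. Without WT replicate 1 limma called C4b and C7, without WT replicate 2 it called C4b, C7, Cfb and Clu, and without SCD replicate 1 or SCD replicate 2 it called 0 genes, with 3303 and 3269 of all genes, 10 and 14 of them members, at an unadjusted p under 0.05. Over all genes 755 were called higher and 195 lower, or 79.5% higher; with the shift of the exon control probes (0.21) taken off every SCD value, the split was 516 to 652, or 44.2% higher, and the same 6 members were called in the same directions.

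**Figure D1:**
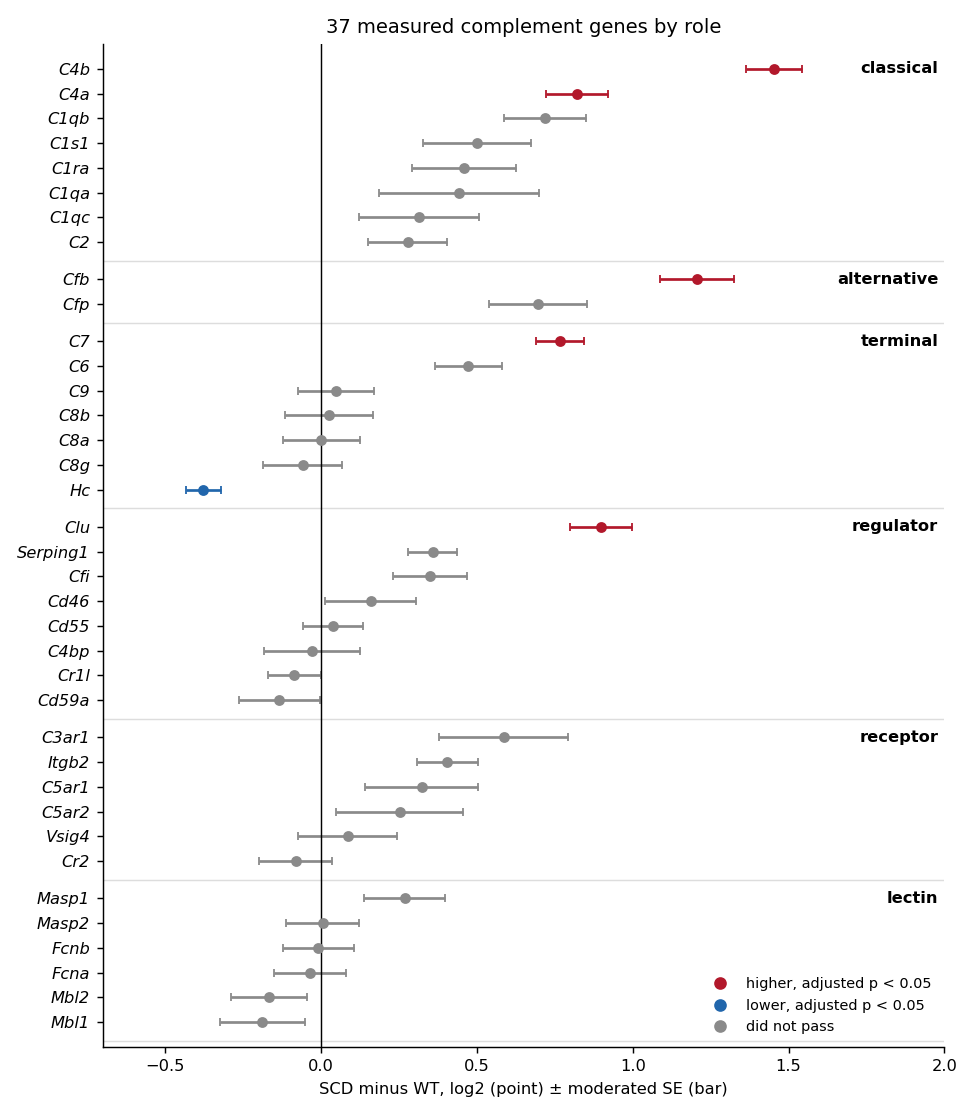
Difference between SCD and WT lung for the 37 measured complement genes, grouped by role; the horizontal axis is SCD minus WT on the log2 scale, points are the limma estimate and bars the moderated SE, with 2 arrays per group. Red points (C4b, C4a, Cfb, C7 and Clu) and the blue point (Hc) passed an adjusted p of 0.05, all 8 classical genes lie to the right of 0, and the 6 lectin pathway genes lie between -0.19 and 0.27.

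All 8 genes of the classical pathway had higher means in SCD lung, with a median difference of 0.48, and 2 of them passed. C4b encodes C4, which is cleaved by C1s to form part of the C3 convertase. Its values were 8.67 and 8.64 in WT lung and 10.14 and 10.08 in SCD lung. The groups were far apart beside the spread within them, and C4b rose by 1.45 ± 0.090 (2.74-fold; adjusted p = 0.0063), the only member called at an adjusted p of 0.01. C4a, the neighbouring gene also known as sex-limited protein, read 6.93 and 6.91 in WT lung and 7.78 and 7.71 in SCD lung. It rose by 0.82 ± 0.10 (1.77-fold; adjusted p = 0.023). C4a and C4b are near-identical copies, so that the probe set of each may also take up RNA of the other; how much was not tested, and the rise of C4a by itself is uncertain.

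No subunit gene of the initiator complex C1 passed at the main setting. C1qb, a chain of the recognition protein C1q, came nearest. Its values were 5.53 and 5.72 in WT lung and 6.42 and 6.26 in SCD lung, without overlap, and the difference was 0.72 ± 0.13 (adjusted p = 0.067); it passed in limma with the dimmest 50% of genes left out (adjusted p = 0.043). The other C1q chains were C1qa at 0.44 ± 0.26, whose arrays overlapped, and C1qc at 0.31 ± 0.19, whose arrays did not. C1qa and C1qc lay below the intron control median on every array. The protease gene C1s1 read 9.35 and 9.76 in WT lung and 10.18 and 9.93 in SCD lung. Its WT arrays differed by nearly as much as the groups, and its difference of 0.50 ± 0.17 (adjusted p = 0.246) did not pass. The partner protease gene C1ra behaved alike, with a difference of 0.46 ± 0.17 (adjusted p = 0.271). Both have close copies, C1s2 and C1rb, which had differences of 0.29 ± 0.18 and 0.38 ± 0.14 and did not pass either. C2, which joins C4 in the classical convertase, had a difference of 0.28 ± 0.13 (adjusted p = 0.367). A further, dimmer probe set of C2 had a difference of 0.016.

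In the alternative pathway, 2 of the 4 listed genes were measured and both had higher SCD values. Cfb encodes factor B, the protease of the alternative C3 convertase. It read 7.59 and 7.74 in WT lung and 8.96 and 8.78 in SCD lung. The groups stood more than 1 unit apart, and Cfb rose by 1.21 ± 0.12 (2.31-fold; adjusted p = 0.013). Cfp encodes properdin, which stabilizes that convertase and is made mostly by myeloid cells. Its values were 7.61 and 7.26 in WT lung and 8.22 and 8.05 in SCD lung. They did not overlap, but the difference of 0.70 ± 0.16 (adjusted p = 0.109) did not pass.

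Of 7 terminal components 1 rose, 1 fell and 5 did not pass, with a median difference of 0.026. C7, which anchors the growing membrane attack complex in the membrane, read 12.33 and 12.44 in WT lung and 13.15 and 13.16 in SCD lung. It rose by 0.77 ± 0.078 (1.70-fold; adjusted p = 0.014). C6, which binds C5b before C7 does, read 8.55 and 8.67 in WT lung and 9.02 and 9.15 in SCD lung, with a difference of 0.47 ± 0.11 (adjusted p = 0.107) that did not pass. Hc, the C5 gene, read 15.16 and 15.18 in WT lung and 14.79 and 14.80 in SCD lung. The groups did not overlap and Hc fell by 0.38 ± 0.057 (1.30-fold; adjusted p = 0.041). That call was lost in limma with repeated quantile normalization, with equal array medians, without the intensity trend and with robust variances, at adjusted p-values from 0.062 to 0.170. The genes of the pore-forming end of the cascade were dim: C8a, C8b and C9 lay below the intron control median on every array, and with C8g their differences ran from -0.059 to 0.049.

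The RefSeq promoter table (GRCm38.p6) held windows for 29 of the 39 listed genes, C7 and Hc among the called ones. The 250 bases before the start of these 2 genes are shown because C7 rose and Hc fell within the same branch of the cascade. Both lie on the minus strand, C7 at chr15:5063774-5064023 and Hc at chr2:35061413-35061662, written 5′ to 3′ in the direction of the gene. Capitals mark a match to TTCNNNGAA, the palindrome of STAT sites:
C7: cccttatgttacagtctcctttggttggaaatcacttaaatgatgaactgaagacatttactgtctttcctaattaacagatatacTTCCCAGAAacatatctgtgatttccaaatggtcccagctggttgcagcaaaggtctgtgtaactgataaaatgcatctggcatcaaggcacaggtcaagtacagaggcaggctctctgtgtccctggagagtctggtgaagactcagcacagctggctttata
Hc: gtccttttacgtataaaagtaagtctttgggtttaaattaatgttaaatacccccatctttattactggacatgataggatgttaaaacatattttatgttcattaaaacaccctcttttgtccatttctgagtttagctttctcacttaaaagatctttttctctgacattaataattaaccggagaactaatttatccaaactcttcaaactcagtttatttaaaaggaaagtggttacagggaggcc
The C7 window held 1 such match, from 164 to 156 bases before the start, and the Hc window held none. Across the 32 windows of listed genes, 3 held this motif (C7, C8a and Masp2), or 9.38%, against 7.02% of all 32851 windows. The other motifs searched on both strands were a form of the interferon-stimulated response element, an NF-kB site and the C/EBP site TTGCNNAA. They were found in 3.13%, 3.13% and 15.6% of the windows of listed genes and in 2.98%, 1.41% and 9.56% of all windows, and in neither window shown. Matches of different motifs were counted separately even where they overlap. A match of letters describes the window and does not show that a factor binds there.

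**Figure D2:**
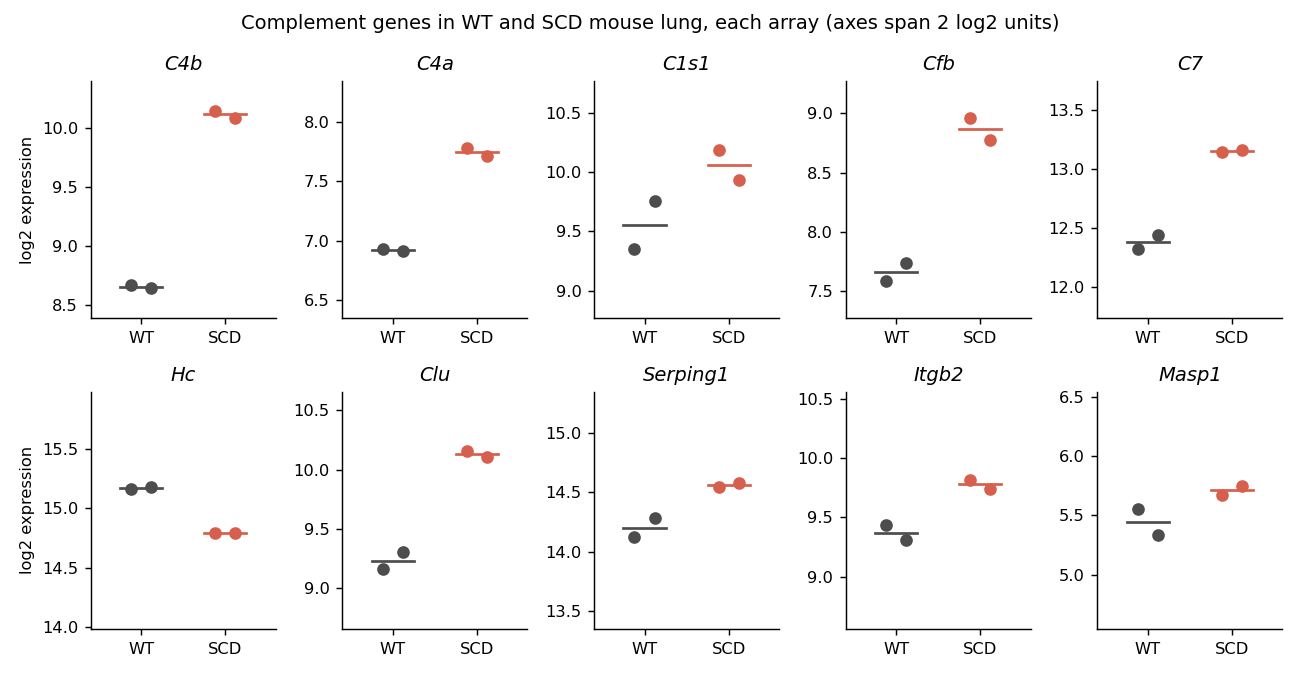
Log2 expression of 10 complement genes on each array, with points for the 2 WT and 2 SCD arrays and lines for group means; every vertical axis spans 2 log2 units but starts at its own level. C4b, C4a, Cfb, C7 and Clu sit higher on both SCD arrays and Hc sits lower, while C1s1, Serping1, Itgb2 and Masp1 are separated between the groups without passing the test.

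Among 8 regulators, 1 passed. Clu encodes clusterin, a secreted chaperone that binds the forming membrane attack complex and keeps it from inserting. It read 9.16 and 9.31 in WT lung and 10.16 and 10.11 in SCD lung, and rose by 0.90 ± 0.099 (1.86-fold; adjusted p = 0.017). Serping1 encodes the C1 inhibitor, which blocks C1r, C1s and the lectin proteases. Its values of 14.12 and 14.28 in WT lung and 14.54 and 14.58 in SCD lung did not overlap. The difference was 0.36 ± 0.079 (adjusted p = 0.103), and it passed with repeated quantile normalization (adjusted p = 0.048). Cfi, the protease factor I that cleaves deposited C3 and C4 fragments, had a difference of 0.35 ± 0.12 (adjusted p = 0.243) at values below the intron control median.

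The membrane-bound regulators that shield host cells did not pass. Cd55, decay-accelerating factor, read 12.28 and 12.31 in WT lung and 12.23 and 12.44 in SCD lung, so that the groups overlapped. Cr1l, known as Crry and the main rodent inhibitor of C3 convertases on cells, read 12.51 and 12.39 in WT lung and 12.40 and 12.33 in SCD lung. Cd59a, which blocks the final pore, had a difference of -0.13 ± 0.13, Cd46 of 0.16 ± 0.15, and C4bp, the fluid-phase C4b-binding protein, of -0.029 ± 0.15. For Cd55 and Cr1l the differences were 0.039 ± 0.097 and -0.085 ± 0.084. Of the secreted regulators, Clu had 0.90, Serping1 0.36, Cfi 0.35 and C4bp -0.029, and only Clu passed. Whether secreted and membrane-bound regulators differ was not tested.

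None of the 6 receptor genes was called by limma, and 2 had an unadjusted p under 0.05. Itgb2 encodes CD18, the beta chain of complement receptors 3 and 4 and of other leukocyte integrins. It read 9.44 and 9.31 in WT lung and 9.81 and 9.74 in SCD lung, with a difference of 0.41 ± 0.098 (adjusted p = 0.126). C3ar1, the receptor of the C3a fragment, read 5.42 and 5.86 in WT lung and 6.41 and 6.04 in SCD lung (0.59 ± 0.21; adjusted p = 0.256). The C5a receptor genes C5ar1 and C5ar2 had differences of 0.32 ± 0.18 and 0.25 ± 0.20. With an array left out, that of C5ar1 ran from 0.089 to 0.56, and the spread between the WT arrays of C5ar2 (8.03 and 7.46) exceeded the difference between groups. Cr2, the B cell and follicular dendritic cell receptor for C3 fragments, had -0.081 ± 0.12, and its dimmer probe set -0.14. Vsig4, the macrophage receptor CRIg, was at 0.085 ± 0.16 and below the intron control median throughout.

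The lectin pathway gave no call. All 6 of its genes lay below the intron control median on every array, none was called by limma and none had an unadjusted p under 0.05. The highest difference was that of Masp1, a protease carried by the lectins, which read 5.56 and 5.33 in WT lung and 5.67 and 5.75 in SCD lung (0.27 ± 0.13; adjusted p = 0.395). Masp2, the protease that cleaves C4 and C2 in this pathway, had a difference of 0.0052 ± 0.12. The mannose-binding lectin genes Mbl1 and Mbl2 had differences of -0.19 ± 0.14 and -0.17 ± 0.12, and the ficolin genes Fcna and Fcnb of -0.035 ± 0.11 and -0.0095 ± 0.11.

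Of 26 further complement genes outside the list, 23 were measured, with 1 called higher, 0 lower and a median difference of 0.033. The 1 call is 4.35% of these genes, where 2.46% of all genes were called higher and 0.635% lower. In limma 5 of the 23 had an unadjusted p under 0.05, as had 5129 of all 30706 genes. Calr encodes calreticulin, an endoplasmic reticulum chaperone that is also a C1q-binding partner at the cell surface. It read 11.64 and 11.65 in WT lung and 12.23 and 12.25 in SCD lung and rose by 0.59 ± 0.073 (adjusted p = 0.024). Below the threshold, 2 genes had lower values with an unadjusted p under 0.05. Cd93, an endothelial and myeloid surface protein once described as a C1q receptor, had a difference of -0.42 ± 0.084 (adjusted p = 0.083), and Itgax, the alpha chain of complement receptor 4, of -0.34 ± 0.13 (adjusted p = 0.293). Itgam, the alpha chain of complement receptor 3, pointed the other way at 0.64 ± 0.14 (adjusted p = 0.099), and these 3 genes were named after their values were seen.

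C4b, C4a, Cfb and C2 lie together in the class III part of the major histocompatibility complex on chromosome 17, and the 3 called members there are counted among each other's neighbours. Of the 10 nearest measured genes around C4b, 5 on each side in the RefSeq order, 2 were called higher: C4a and Gm24389, a predicted small nuclear RNA gene (1.08 ± 0.093; adjusted p = 0.0089). Around Cfb 1 of 10 was called, C4a. The genes between C4a and Cfb, namely Stk19, Dxo, Mir6971 and Nelfe, had differences from -0.16 to 0.24 and did not pass. Between C4b and C4a, the Stk19-ps1, Skiv2l-ps1, Tnxa and Cyp21a1 genes ran from -0.25 to -0.00066 and did not pass either. Stk19-ps1 and Cyp21a1 lay below the intron control median on every array, and Skiv2l-ps1, Stk19 and Dxo lay near it. The lack of a call for such dim genes carries little information, and whether the calls share a regional cause was not tested. Near C7 on chromosome 15, 1 of 10 neighbours was called, Gm25652, a predicted small nuclear RNA gene that lies within the C7 gene (1.61 ± 0.20; adjusted p = 0.024). C6 lies 2 places from C7. None of the 10 neighbours of Hc on chromosome 2 or of Clu on chromosome 14 was called by limma, with 0 at an unadjusted p under 0.05; their differences ran from -0.31 to 0.29 and from -0.20 to 0.22.

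**Figure D3:**
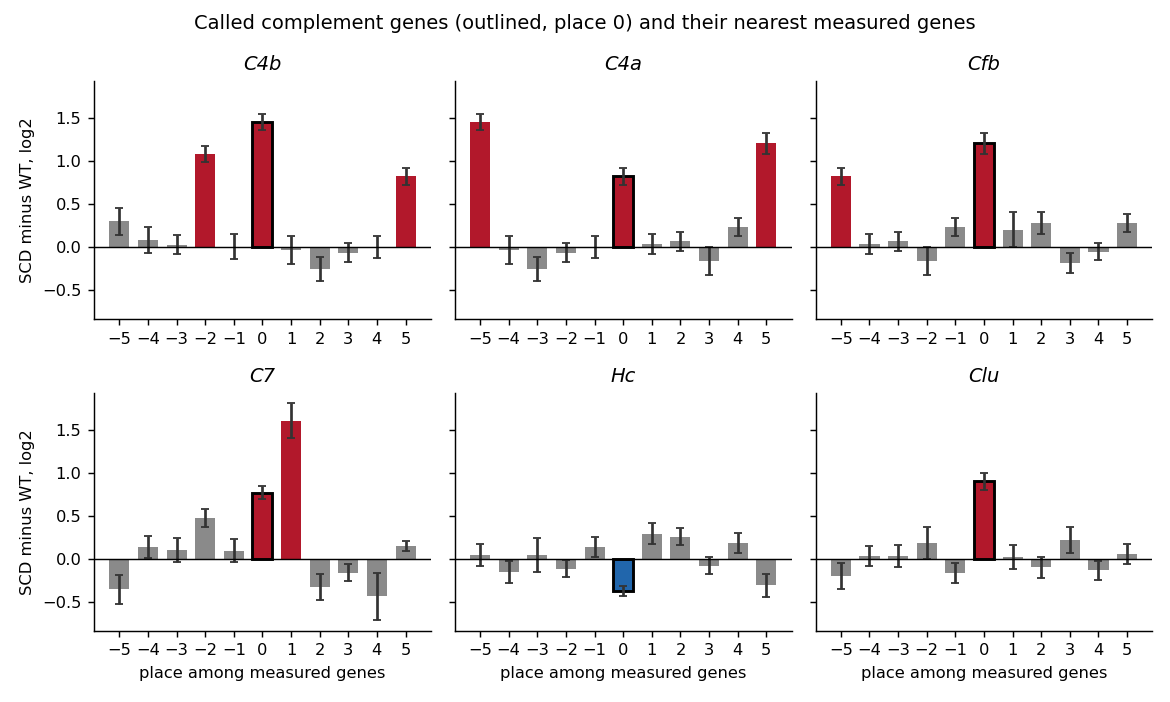
Differences, SCD minus WT on the log2 scale, of the 6 called complement genes (outlined bar at place 0) and of the 5 nearest measured genes on each side in chromosome order; bars start at 0, whiskers are the moderated SE, red and blue bars passed an adjusted p of 0.05. The C4b, C4a and Cfb panels show overlapping stretches of chromosome 17, and grey genes lie between the red ones. Gm24389 in the C4b panel and Gm25652 beside C7 are also red, while Hc and Clu stand alone.

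Whole lung holds many cell types, and a change in the number of cells of a type cannot be told apart from a change in RNA per cell. Markers of other cells moved beside the complement genes. Of 7 neutrophil genes 6 rose, by 1.10 (Csf3r) to 2.62 (S100a8); the log2 of their summed linear values went from 16.07 and 16.47 on the WT arrays to 18.75 and 18.91 on the SCD arrays, and Ly6g was below the intron control median throughout. Itgb2, Itgam, Cfp and C5ar1 are also expressed by neutrophils, and the part of these cells in their values was not tested. Of 7 macrophage genes Ms4a7 rose by 1.37 ± 0.16 and 6 did not pass. Of those 6, Adgre1 (0.46 ± 0.098), Mrc1 (0.37 ± 0.11), Cd68 (0.35 ± 0.10) and Csf1r (0.35 ± 0.14) had higher values on both SCD arrays. Cd163 (-0.45 ± 0.12) and Folr2 (-0.24 ± 0.15) had lower values on both. Of all genes, 25.3% were higher and 22.5% lower on both SCD arrays. The sum of the 7 macrophage genes went from 12.21 and 12.40 to 12.69 and 12.68, with Mrc1 and Cd68 the brightest. Folr2 and Cd163 were below the intron control median on every array. The part of macrophages in the C1q and C3ar1 values was not tested.

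Markers of other cell types gave mixed values. All 4 alveolar type 2 cell genes had lower means in SCD lung, from -0.35 (Abca3) to -0.027 (Sftpa1), with sums of 18.32 and 18.30 in WT and 18.19 and 18.21 in SCD lung; none passed in limma, with 1 (Lamp3) at an unadjusted p under 0.05. The part of type 2 cells in the complement values was not tested. Of 5 fibroblast genes Col1a1 fell by 0.64 ± 0.10 and 4 did not pass. Of those 4, Col1a2 (-0.62 ± 0.11) and Lum (-0.35 ± 0.13) had lower means, and Tcf21 (0.66 ± 0.19) and Dcn (0.14 ± 0.096) higher means. The fibroblast sums were 12.57 and 12.84 in WT and 12.93 and 12.89 in SCD lung, with Dcn the brightest of the 5 genes. Of 4 mesothelial genes Upk3b fell by 1.03 ± 0.10, with sums of 8.85 and 9.04 against 8.32 and 8.25. Of 6 adipocyte genes 3 fell (Adipoq, Fabp4 and Retn, by 1.33, 1.22 and 0.94), with sums of 10.70 and 10.92 against 9.77 and 9.71; Cfd, the adipocyte complement gene, was not measured here. Of 5 B cell genes none was called by limma, with 2 at an unadjusted p under 0.05, both lower, and sums of 10.57 and 10.68 against 10.47 and 10.37; Cr2, expressed by B cells, also did not pass. Of 7 hepatocyte genes Alb fell by 0.77 ± 0.12 and 6 did not pass; 6 of the 7 were below the intron control median on every array, and their sums were 8.34 and 8.11 in WT and 8.18 and 7.96 in SCD lung, and none of them was called higher.

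**Figure D4:**
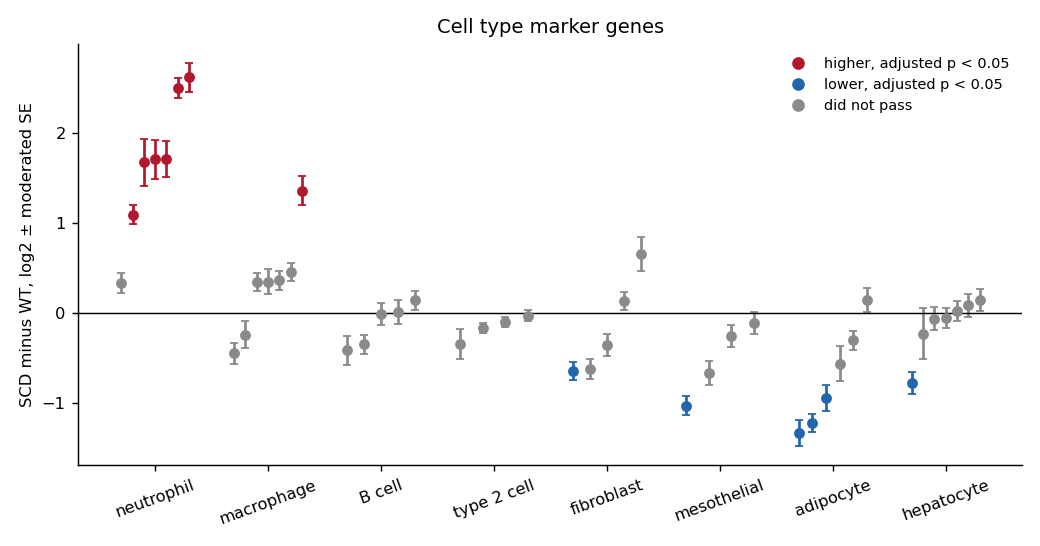
Differences between SCD and WT lung, on the log2 scale with the moderated SE, of marker genes of 8 cell types; each point is a gene, red and blue points passed an adjusted p of 0.05. Of the 7 neutrophil genes 6 rose and of the 6 adipocyte genes 3 fell, while hepatocyte genes lie near or below 0.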

How the data were processed

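Whole-lung RNA of 2 WT and 2 SCD arrays was measured on Affymetrix arrays after extraction with TRIzol and labelling with biotin by a 3' kit, per the labels' protocols. The deposited values are 1 log2 expression value per probe set and array, made by the authors with RMA (robust multi-array average), Partek and Affymetrix Expression Console, per the submitters' processing notes, with no version, role or order given. No header names the scale; values between 1.72 and 19.93 were taken as log2. Groups were taken from the sample titles.

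Of 72688 probe sets, 6732 were controls; 31263 were annotated to 1 gene, 1487 to several and 33206 to none. Symbols were updated through the RefSeq table of GRCm38.p6, which held 30704 of the 30706 genes. Normalization was kept and no dim probe set was left out. SCD was compared with WT by limma 3.58.1 in R 4.3.3 (lmFit and eBayes with an intensity trend, group as the only term, two-sided tests, Benjamini-Hochberg adjustment over all genes). The script was tested on simulated data. The members, the further pathway genes and the marker lists were chosen with earlier results of these data known. Values on each array are given for called members and, in each role, for the member with the smallest p and the one with the highest mean; others given by array were chosen after their values were seen. Precision is limited by the number of arrays, among other things given beside the results. Alternatives were a block for the replicate number, limma without the trend, the dimmest 25% or 50% of genes left out, averaged or separate probe sets, other normalizations, robust variances, thresholds of 0.01 and 0.1, and each array left out.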

Additional observations from a re-analysis of the deposited data

How the results depend on the processing

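The 5 increases (C4b, C4a, Cfb, C7 and Clu) were called under every alternative that kept all 4 arrays and the threshold of 0.05; at 0.01 only 1 member was higher. The count of higher members ran from 0 to 4 with an array left out. The count of lower members fell from 1 to 0, with Hc lost, in limma with the replicate block (adjusted p = 0.055), with no intensity trend, repeated quantile normalization, equal array medians and robust eBayes, and at the threshold of 0.01; it was 0 without each of the arrays. In those of these settings that kept all 4 arrays, 14 or 15 members had an unadjusted p under 0.05 in limma. So did 4957 to 5350 of all 30706 genes. With the dimmest 50% of genes left out, and at the threshold of 0.1, C1qb passed too and 6 members were higher. Titles share replicate numbers, and deviations of same-numbered arrays had a correlation of -0.0022 over 30685 genes. With 2 arrays a group this rests on 1 difference per group, and cannot tell whether same-numbered arrays shared a batch. The replicate block moved the calls over all genes from 755 higher and 195 lower to 775 and 193. Among further pathway genes, the count of higher genes fell from 1 to 0 with no intensity trend, with the exon control shift removed and at 0.01, rose to 2 at 0.1 and was 0 without any of the arrays; the count of lower genes rose from 0 to 1 with repeated quantile normalization, the exon control shift removed and at 0.1, and was 0 with any array left out. Their causes were not tested.

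Signs turned only for members that did not pass. With the exon control shift removed, which lowers every difference by the same amount, C8a came to -0.21, C8b to -0.19, C9 to -0.16, Cd46 to -0.052, Cd55 to -0.17, Masp2 to -0.21 and Vsig4 to -0.13. Repeated quantile normalization gave 0.0013 for C4bp, -0.032 for Cd55 and 0.025 for Fcnb, and equal array medians 0.0021 for C4bp and 0.022 for Fcnb. With an array left out, differences ran from -0.18 to 0.12 (C4bp), -0.034 to 0.54 (C5ar2), -0.058 to 0.061 (C8a), -0.10 to 0.15 (C8b), -0.16 to 0.046 (C8g), -0.065 to 0.14 (Cd55), -0.27 to 0.0059 (Cd59a), -0.17 to 0.011 (Cr2), -0.10 to 0.030 (Fcna), -0.040 to 0.021 (Fcnb), -0.063 to 0.073 (Masp2) and -0.083 to 0.25 (Vsig4). Others kept their sign but moved widely, such as C1qa (0.14 to 0.75), C1qc (0.063 to 0.57) and C5ar1 (0.089 to 0.56).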
